A study of Mus musculus with 34 samples.

Results

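CpG island methylation of the adult mouse spleen was measured on 2 of the 34 arrays of the series and was set against 14 arrays of 7 other adult tissues (brain, colon, kidney, liver, lung, muscle and pancreas, with 2 arrays each). The arrays were taken by their tissue labels and not by their values, although earlier results of these data were known. All 16 adult samples were untreated C57Bl/6 mice of 3 months with no allele or agent named. Spleen replicate 1 was labelled female and spleen replicate 2 male, as were replicates 1 and 2 of brain, kidney, liver and muscle, whereas both lung samples were female and both colon and pancreas samples male. The DNA came from whole organs, and the sources used here do not say whether organs of 1 animal or of several went into a sample.

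Methylated DNA was precipitated with an antibody to 5-methylcytidine (mDIP) and hybridised with its input to an Agilent array of CpG island probes. Each probe's log ratio of bound to input was turned into a Z-score within its array. The island methylation score (IMS) was the mean Z-score of the probes of an island. By the thresholds of the study's methods an IMS below 0 was unmethylated and one above 0.75 methylated. A total of 13238 autosomal islands was scored, of which 11866 carried the name of 1 of 9932 genes. The score is relative to the other probes of the same array and is not a percentage of methylated CpGs.

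CpG islands are stretches rich in the CpG dinucleotide, often at the start of genes, and most of them stay unmethylated in normal tissues. A smaller number acquire methylation in some tissues, and methylation of an island at a promoter goes with silencing, while islands inside gene bodies can be methylated in transcribed genes. The spleen filters blood and houses B cells, T cells, macrophages and, in the mouse, precursors of red cells and platelets, held in a net of stromal and endothelial cells. Blood cells of these lineages are specified by transcription factors such as Runx1, Spi1, Gfi1, Fli1 and Pax5. In whole organ DNA, a smaller share of cells with a methylated island and fewer methylated CpGs in each cell cannot be told apart.

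The array files gave positions without naming a genome build, and no genome of their build was at hand, so the islands themselves are not printed. The 250 bases before the start of 4 genes are shown from RefSeq (GRCm38.p6) with each CG in capitals. For 5730596B20Rik, Fgf22 and Grrp1, the array annotation placed an island described below in the promoter, and for S1pr4 the island lay inside the gene and was the only island called lower without the slide of spleen and kidney replicate 1. The older array design named the Grrp1 island Zfp593, so the annotation may refer to the promoter of either gene. It was not tested whether the array probes lie in these windows.
5730596B20Rik (chr6:52176905-52177154, plus strand): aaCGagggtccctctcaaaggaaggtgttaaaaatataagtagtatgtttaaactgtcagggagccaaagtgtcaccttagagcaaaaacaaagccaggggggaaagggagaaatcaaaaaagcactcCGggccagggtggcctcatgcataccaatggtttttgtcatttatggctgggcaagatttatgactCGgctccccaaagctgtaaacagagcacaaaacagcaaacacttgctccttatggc
Fgf22 (chr10:79754859-79755108, plus strand): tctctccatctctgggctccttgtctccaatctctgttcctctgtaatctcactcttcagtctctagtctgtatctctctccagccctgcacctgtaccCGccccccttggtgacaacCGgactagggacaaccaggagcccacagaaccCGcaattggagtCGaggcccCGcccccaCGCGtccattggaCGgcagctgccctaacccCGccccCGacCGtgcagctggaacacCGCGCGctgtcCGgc
Grrp1 (chr4:134254107-134254356, minus strand): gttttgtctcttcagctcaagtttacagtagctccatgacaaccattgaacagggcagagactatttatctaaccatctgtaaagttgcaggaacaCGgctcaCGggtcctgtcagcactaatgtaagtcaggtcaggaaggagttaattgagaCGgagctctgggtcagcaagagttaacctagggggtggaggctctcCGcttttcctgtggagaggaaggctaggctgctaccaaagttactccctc
S1pr4 (chr10:81500138-81500387, minus strand): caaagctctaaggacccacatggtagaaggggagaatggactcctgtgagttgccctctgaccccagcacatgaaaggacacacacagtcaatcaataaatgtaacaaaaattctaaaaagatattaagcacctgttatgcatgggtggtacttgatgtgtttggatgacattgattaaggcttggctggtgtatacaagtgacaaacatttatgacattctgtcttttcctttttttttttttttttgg
The Fgf22 window held 15 CG pairs, and 27.3% of the 32851 RefSeq promoter windows of this length held as many. The windows of 5730596B20Rik and Grrp1 held 3 and 4, and that of S1pr4 held none, against a median of 6 over all windows.

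The arrays were first compared with their labels. The array labelled spleen replicate 1 correlated most closely with lung replicate 1 (r = 0.960 across the 13238 islands) and the array labelled spleen replicate 2 with kidney replicate 1 (r = 0.951), whereas the spleen arrays correlated with each other at r = 0.908. The array with the same label was the closest for only 3 of the 16 adult arrays. Spleen and kidney replicate 1 were hybridised on 1 slide and spleen and kidney replicate 2 on another. The difference of spleen minus kidney on the first slide correlated at r = -0.650 with the same difference on the second, again across islands, which share their probes. At 290 islands the difference passed 0.75 in opposite directions on the 2 slides and at 1 island in the same direction. The corresponding correlations between replicates 1 and 2 were -0.509 for brain minus liver and -0.514 for lung minus muscle, whose replicate 1 arrays also shared slides, and lay between -0.280 and 0.503 for the other 25 pairs of tissues. The X-linked islands, which carry the methylated inactive X in females, averaged 0.915 to 1.87 on the 7 female and 0.151 to 0.293 on the 9 male arrays, as labelled. The sex could not tell spleen and kidney replicate 1 apart, since both were labelled female. The arrays were kept under their labels throughout, and each value is that of the array carrying the label. Whether the labels of the arrays on these slides had been exchanged was not tested. Results are given with all 16 arrays and without the slides concerned.

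With all 16 arrays, no island passed the test for a difference between spleen and the mean of the other 7 tissues. By limma at an adjusted p under 0.05, 0 of 13238 islands were higher and 0 lower (0%), while 262 (1.98%) had an unadjusted p under 0.05. The same contrast called 105 islands higher and 5 lower for colon, 6 higher and 2 lower for pancreas, and 0 for each of the other tissues. Both spleen arrays lay above all 14 others at 25 islands (0.189%) and below them at 66 (0.499%), compared with 590 and 340 for colon, 102 and 83 for brain and 4 and 20 for kidney. No island was above 0.75 on both spleen arrays and below 0 on all 14 others, or the opposite. The islands at Bcat1 and Kiss1r had high scores on both spleen arrays without passing the test, and they and the other islands of this paragraph were singled out after their values were seen.

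Bcat1, the cytosolic branched-chain aminotransferase, had an IMS of 2.10 and 2.29 on spleen replicates 1 and 2 and -0.0634 to 2.38 (median 0.925) on the 14 others. Both spleen arrays were above every other array except kidney replicate 1, and the difference was 1.21 ± 0.264 (SE, adjusted p = 0.999). The island inside Kiss1r, the kisspeptin receptor, had 1.38 and 1.44 against 0.0811 to 1.26 (median 0.729), without overlap, and a difference of 0.751 ± 0.191 (adjusted p = 0.999). Downstream of Myog, the muscle regulator myogenin, the spleen arrays had 1.90 and 1.84, just above the highest other array at 1.81. On the low side, the island downstream of Foxa2, a factor of endodermal organs, had -0.988 and -0.688 against -0.964 to 1.97 (median -0.667) on the others, with which spleen replicate 2 overlapped. The island of Mnx1, a homeobox gene of motor neurons and pancreas, had -0.952 and -0.211, also within the range of -0.961 to 2.84. The adjusted p of each of these islands was 0.999.

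The spleen arrays mostly differed from the other tissues at different islands. The island sets were chosen on 1 replicate number and measured on the other, so that no array stood on both sides. Spleen replicate 1 was at least 0.75 above the mean of the replicate 1 arrays of the other tissues at 130 islands (0.982%), and 2 of these passed 0.75 on replicate 2, where their median difference was -0.253. Spleen replicate 2 was at least 0.75 above the replicate 2 arrays at 320 islands (2.42%), of which 2 passed on replicate 1, with a median of -0.0537. Of the islands lower by 0.75 or more, 14 (0.106%) on replicate 1 and 62 (0.468%) on replicate 2, 4 were lower on both. These 4 were 28.6% of the 14, against 0.468% of all islands, and 6.45% of the 62, against 0.106%. The median difference on the other replicate was -0.172 for the 14 and 0.298 for the 62. Over all islands the 2 differences had a correlation of -0.0527.

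**Figure D1:**
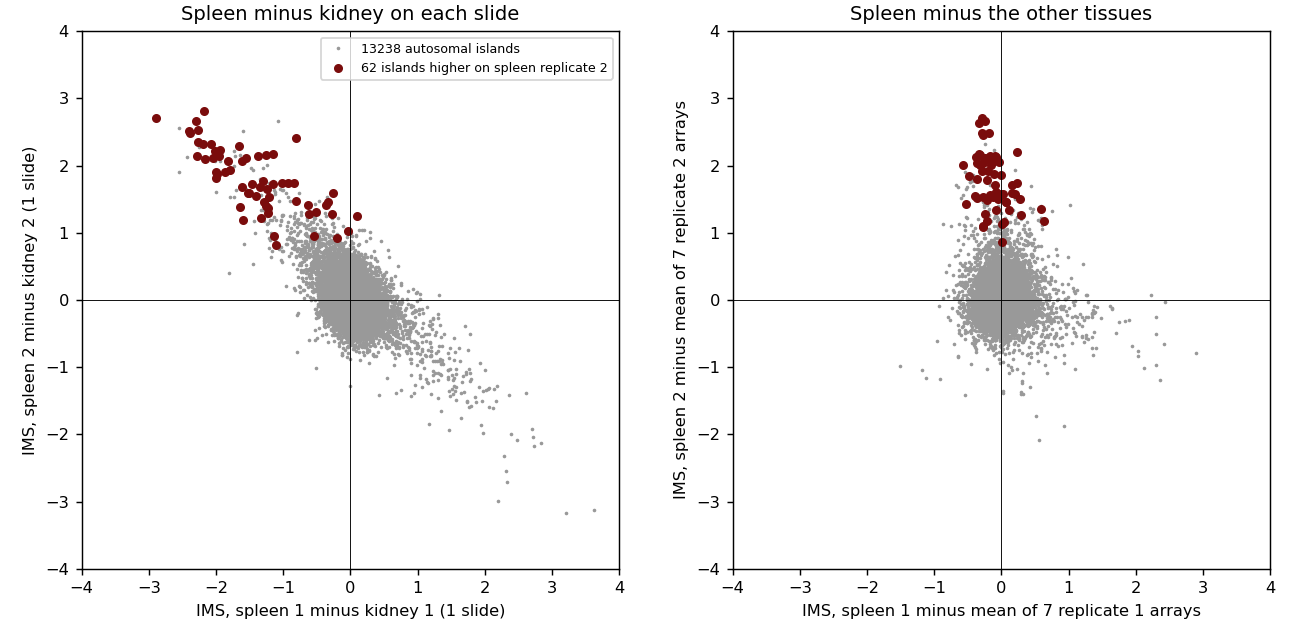
Differences in IMS at the 13238 autosomal islands (grey), on the replicate 1 arrays along the horizontal axis and on the replicate 2 arrays along the vertical axis, for spleen minus kidney on each shared slide (left) and spleen minus the mean of the other tissues (right). The 62 islands described next (dark red) were chosen high on spleen replicate 2, and on the replicate 1 slide spleen lay below kidney at 61 of them.

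When spleen and kidney replicate 1 were left out together with their slide, the islands called higher on the array labelled spleen replicate 2 included some at regulators of blood cells. Spleen was higher at 62 of 13238 islands (0.468%) and lower at 1 (0.00755%, the island of S1pr4), by 0.872 to 2.63 with a median of 1.70. The 62 islands carried 49 gene names, and 10 had no name. In this comparison spleen was a single array, assumed to vary as much as the arrays of the other tissues, and 12 other arrays in 6 tissues and kidney replicate 2 stood against it. It was chosen after the values had been seen, as were the genes named from it, so its p-values are a description. Without spleen replicate 1 alone, with kidney replicate 1 kept, 0 islands were called, against 508 at an unadjusted p under 0.05. With normexp background correction in place of the scanner's, 15 islands were higher and 0 lower. With the scanner's correction and colon replicate 1 or 2 left out in addition, 40 and 38 were higher and 1 lower.

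Among the called islands were those of transcription factors of blood formation, a list chosen with earlier results of these data known. Of 121 islands at 68 such genes, 7 were called higher (5.79%, against 0.468% of all islands) and none lower, although the median difference over the 121 islands was 0.0333, close to the -0.0127 over all islands. The 7 were 2 islands of Runx1 and 1 each of Spi1, Pax5, Gfi1, Fli1 and Runx3. An island inside Runx1, the factor needed for the first blood stem cells, had an IMS of 3.03 on the array labelled spleen replicate 2, 3.39 on kidney replicate 1, 0.507 on spleen replicate 1 and -0.608 to 1.40 (median 0.322) on the 13 others (chr16:92584325-92584657 in the coordinates of the array files). Spleen replicate 2 and kidney replicate 1 stood together above all other arrays, spleen replicate 1 lay among the other tissues, and the difference was 2.63 ± 0.265 (SE, adjusted p = 0.0043). At Spi1, which encodes the myeloid and B cell factor PU.1, the scores were 3.00 on the array labelled spleen replicate 2, 3.11 on kidney replicate 1, 1.06 on spleen replicate 1 and 0.372 to 1.70 (median 0.888) on the 13 others (chr2:90915973-90916423). The same 2 arrays again stood apart, and the difference was 2.07 ± 0.214 (SE, adjusted p = 0.0043).

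Pax5, the gene that commits cells to the B lineage, had scores of 1.64 on the array labelled spleen replicate 2, 1.16 on kidney replicate 1, -0.222 on spleen replicate 1 and -0.540 to 0.676 (median -0.164) on the 13 others (chr4:44685178-44685789). The other adult arrays thus ranged from unmethylated to just below 0.75 while spleen replicate 2 and kidney replicate 1 were methylated, and the difference was 1.77 ± 0.184 (SE, adjusted p = 0.0043). Gfi1 encodes a transcriptional repressor that acts in neutrophil and lymphoid development. Its island had 3.26 on the array labelled spleen replicate 2, 3.36 on kidney replicate 1 and 0.964 on spleen replicate 1. The 13 others had -0.428 to 1.86 (median 0.894), and the difference was 2.43 ± 0.405 (SE). Fli1, an ETS factor of megakaryocytes and endothelium whose island was annotated as promoter, had 3.14 and 3.10 on spleen replicate 2 and kidney replicate 1, 1.28 on spleen replicate 1 and at most 2.29 on the 13 others. Runx3, a factor of cytotoxic T cells, and Hlx, a homeobox gene of blood and gut mesenchyme that was not on the list, differed by 1.51 and 1.42 (adjusted p = 0.014 and 0.014). For both, spleen replicate 1 was inside the range of the 13 others.

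**Figure D2:**
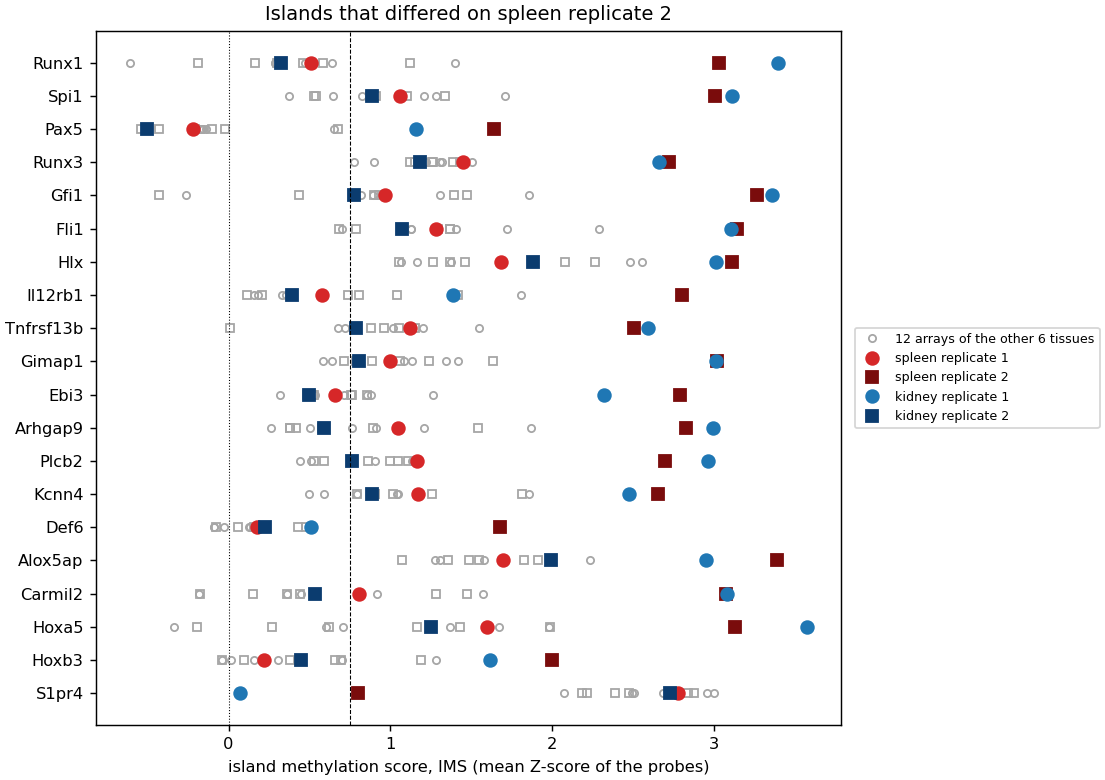
IMS on the 16 adult arrays (horizontal axis, mean Z-score; the lines mark 0 and 0.75) at 20 named islands called on spleen replicate 2, with circles for replicate 1 and squares for replicate 2. Spleen replicate 2 and kidney replicate 1 lie at the high end of most rows and at the low end of S1pr4, and spleen replicate 1 and kidney replicate 2 lie among the grey arrays of the other 6 tissues.

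Of 47 islands at 36 genes of leukocyte receptors and signalling, 2 were called higher (4.26%, against 0.468% of all islands and 4.65% on the list of epithelial genes) and none lower, with a median difference over the list of 0.0153. Il12rb1, a receptor subunit for interleukins 12 and 23, had 2.80 on the array labelled spleen replicate 2, 1.39 on kidney replicate 1, 0.574 on spleen replicate 1 and 0.112 to 1.81 (median 0.388) on the 13 others. Spleen replicate 2 was the highest array, kidney replicate 1 lay below the highest of the others, and the difference was 2.21 ± 0.306 (SE, adjusted p = 0.014). Tnfrsf13b, the TACI receptor of B cells, had 2.51 and 2.59 on spleen replicate 2 and kidney replicate 1 and 0.00877 to 1.55 on the 13 others (difference 1.63, adjusted p = 0.02).

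Some called islands outside the lists lay at genes that are known from blood cells. They were picked for this after the calls were seen, with no list behind them, and are given as values. Gimap1, a GTPase of lymphocytes, was higher by 2.01 (IMS 3.02), and Ebi3, the shared subunit of interleukins 27 and 35, by 2.11 (IMS 2.79). Plcb2, a phospholipase C, was higher by 1.85. Carmil2, an actin regulator in T cell costimulation, was higher by 2.46, with 3.07 against -0.181 to 1.57 on the 13 others. Kcnn4, a calcium-activated potassium channel, Def6, an exchange factor in T cells, and Alox5ap, needed for leukotriene synthesis, were higher by 1.63, 1.54 and 1.71. Def6 was high on spleen replicate 2 (1.67) and at 0.507 on kidney replicate 1, where the highest of the others was 0.476.

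The remaining called islands lay at genes of many roles. The largest differences after Runx1 were at Rnf220, a ubiquitin ligase (2.59), at 5730596B20Rik (2.55), at Carmil2 and at Agap2 (2.44). Hoxa5 and Hoxb3, homeobox genes of body axis patterning, had differences of 2.15 and 1.55. The median difference over the 64 islands at 36 Hox genes was -0.00835, beside -0.0127 over all islands. The phosphodiesterase Pde4d was higher by 2.09, and Wiz and Rtkn, whose islands were annotated as promoters, by 2.12 and 2.12. Of the genes whose upstream bases are shown above, the island named Grrp1 (Zfp593 on the older design) was higher by 1.16. Its IMS was 1.54 on spleen replicate 2. Fgf22, a fibroblast growth factor, was higher by 0.872, the smallest difference among the called islands, with an IMS of 0.829.

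S1pr4, the sphingosine-1-phosphate receptor of lymphoid cells, had the only island called lower on spleen replicate 2. The IMS of this island was above 0.75 on every adult array except kidney replicate 1 (0.0728), and only just so on the array labelled spleen replicate 2 (0.802). It was 2.78 on spleen replicate 1 and 2.07 to 3.00 (median 2.51) on the 13 others (chr10:80902237-80902772). Spleen replicate 2 lay between kidney replicate 1 and all others, and the difference was -1.78 ± 0.222 (SE, adjusted p = 0.0066). S1pr4 was on the list of lymphoid cytokines and their receptors. The median difference over the 11 islands of this list was -0.147, beside -0.0127 over all islands.

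The arrays that had been left out were read at the same islands. Kidney replicate 1 lay above all 13 others at 54 of the 62 islands, while it did so at 4.29% of all islands, and below all of them at S1pr4. Spleen replicate 1 lay above all 13 others at 4 of the 62, against 3.01% of all islands, and not below them at S1pr4. The median IMS over the 62 islands was 2.72 on spleen replicate 2, 2.63 on kidney replicate 1, 0.959 on spleen replicate 1 and 0.308 to 1.43 on the 13 others. Within the slides, the median of spleen minus kidney was -1.39 for replicate 1, with spleen below kidney at 61 islands, and 1.74 for replicate 2, with spleen above kidney at all 62. Spleen replicate 2 had served to choose the islands, and kidney replicate 2 was among the 13 arrays set against it. The positive difference on the replicate 2 slide was thus not independent of the choice. Spleen replicate 1 and kidney replicate 1 were not in that fit. They were left out after their values had been seen, so their scores here are a description and no independent check.

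**Figure D3:**
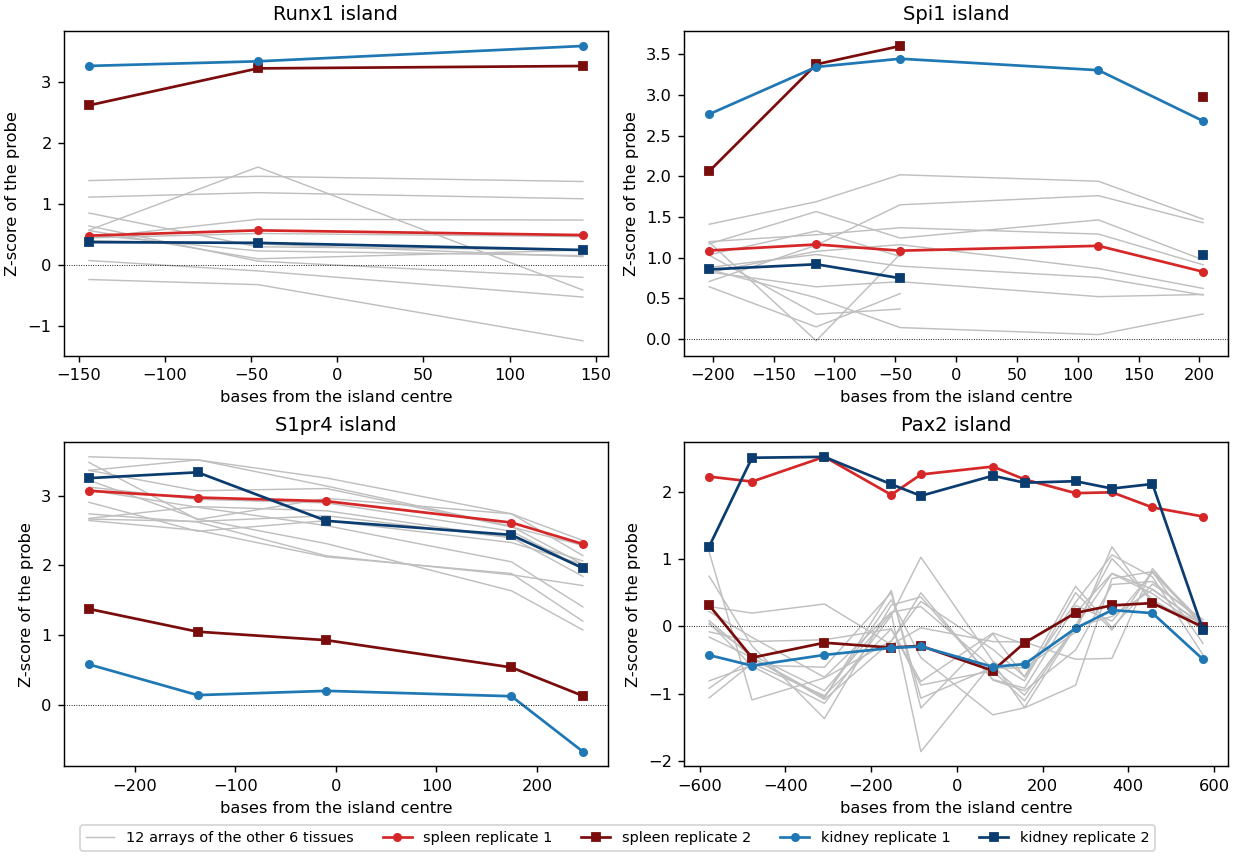
Z-score of each probe (vertical axis) against its distance in bases from the island centre for the islands of Runx1, Spi1, S1pr4 and Pax2 on the 16 adult arrays, with a gap where a probe was not on the newer array design. Spleen replicate 2 and kidney replicate 1 lie apart from the rest at every probe of Runx1, Spi1 and S1pr4 that they hold, and spleen replicate 1 and kidney replicate 2 at most probes of Pax2.

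The array labelled spleen replicate 1 was high at other islands. Without the slide of spleen and kidney replicate 2, spleen was higher at 2 of 13238 islands (0.0151%) and lower at none (0%). These were Pax2, a factor of kidney and urogenital development (2.27 ± 0.178, adjusted p = 0.0014), and Ptx3, a secreted pattern recognition protein (2.06 ± 0.182, adjusted p = 0.0023). Pax2 had 2.09 on spleen replicate 1, 1.90 on the left-out kidney replicate 2, -0.0981 on spleen replicate 2 and -0.370 to 0.00296 on the 13 others (chr19:44889230-44890438). Ptx3 had 1.78, 2.01, -0.694 and -0.547 to 0.0523 on the same arrays. At both islands the arrays labelled spleen replicate 1 and kidney replicate 2 stood above all others.

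Further islands showed this pattern without passing that test. They were named from the comparison without 6 replicate 2 arrays described further on, where each passed, after their values were seen. Wt1, a gene of kidney, gonad and spleen development, had 1.05 on spleen replicate 1 and 0.822 on kidney replicate 2 against at most 0.0573 on the 13 others (adjusted p = 0.17). Emx1, a homeobox gene of the forebrain, had 1.16 and 1.08 against at most -0.144 (adjusted p = 0.17). Among posterior and other Hox genes, Hoxa11 had 2.53 and 2.51, with the highest of the others at 1.92, and Hoxd3 2.72 and 2.42 with the highest at 1.82. Of the 64 Hox islands, 19 were at least 0.75 above the other tissues on replicate 1, against 0.982% of all islands, and 7 on replicate 2, against 2.42%. The Hox level was not particular to spleen replicate 1 and kidney replicate 2. The 64 islands averaged 0.482 and 0.474 on these arrays, 0.449 on lung replicate 1 and 0.394 on muscle replicate 2. On the remaining adult arrays they averaged at most 0.195.

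**Figure D4:**
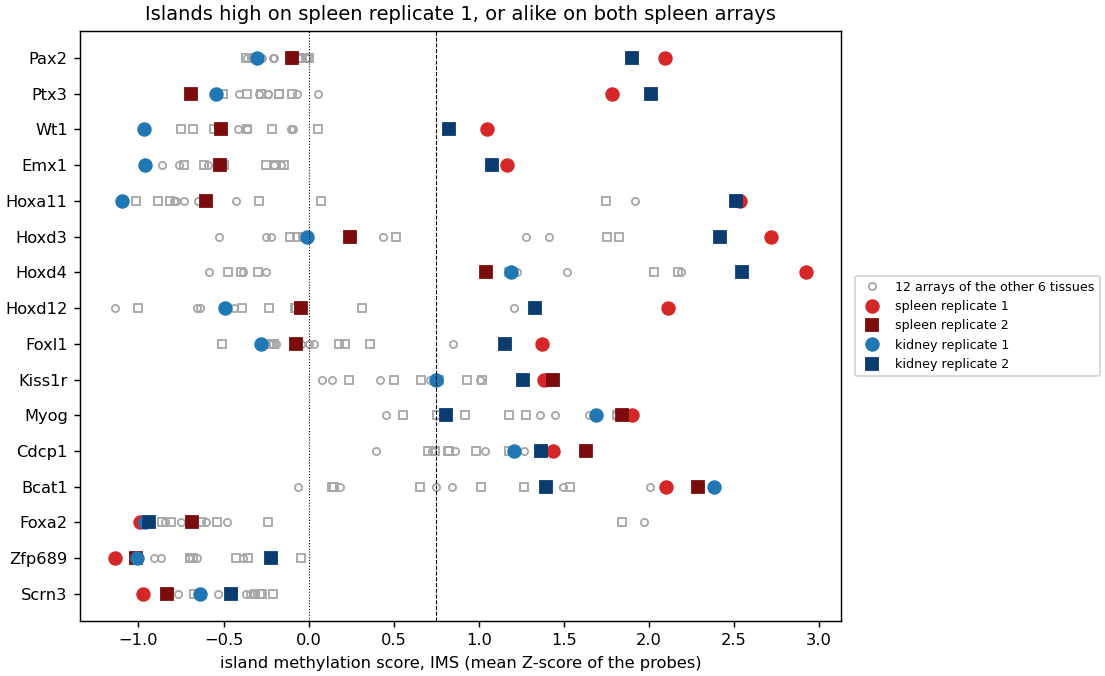
IMS on the 16 adult arrays (horizontal axis, mean Z-score; the lines mark 0 and 0.75) at 16 named islands, with circles for replicate 1 and squares for replicate 2. Spleen replicate 1 and kidney replicate 2 lie at the high end of the rows from Pax2 to Foxl1, and both spleen arrays lie close together from Kiss1r down.

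Leaving out more arrays changed how many islands were called. Without the 6 replicate 1 arrays of the slides shared by kidney and spleen, brain and liver, and lung and muscle, spleen replicate 2 was higher at 246 islands (1.86%) and lower at 36 (0.272%), and all 62 islands were among the 246. Spleen and 5 other tissues then had 1 array each, so that the spread came from colon and pancreas alone, whose arrays differed least (SD 0.180 and 0.225, against 0.278 to 0.337 for the other tissues), and the p-values of this comparison and the next are too small if spleen varied more. Kidney replicate 1 lay above the remaining 9 other arrays at 166 of the 246, against 7.06% of all islands, and spleen replicate 1 at 19, against 5.99%. Without the replicate 2 arrays of the same 6 tissues, spleen replicate 1 was higher at 61 islands (0.461%) and lower at 3 (0.0227%). Kidney replicate 2 lay above all 9 at 39 of the 61, against 10.3% of all islands, and spleen replicate 2 at 1, against 9.31%.

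The other lists were read in the comparison without the slide of replicate 1, where the median difference over all islands was -0.0127. The list of epithelial genes (43 islands) had a median of 0.0611. Called on it were Cblc, a ubiquitin ligase of epithelia, and Sh2d3c, an adaptor of T cell and integrin signalling that does not mark epithelium. The erythroid and megakaryocyte list (34 islands) had a median of -0.0365. Called on it was the Fli1 island already counted among the blood factors. On the lists of spleen organ factors (35 islands), macrophage genes (9), pancreatic genes (39) and vascular and stromal genes (42), medians ran from -0.0647 to 0.0556. Factors of other organs (164), germline genes (21) and imprinted genes (36) had medians of -0.0338, 0.0262 and 0.0609. DNA methylation enzymes (20) and ribosomal and other housekeeping genes (79) had 0.0148 and -0.0198. The germline islands, methylated in somatic tissues, averaged 2.04 to 2.66 on the 16 arrays and the housekeeping islands -0.339 to -0.121, with the spleen arrays inside both ranges. The 121 islands of blood factors averaged 0.176 on spleen replicate 1 and 0.339 on spleen replicate 2, the latter above the 0.0829 to 0.264 of the other 14 arrays. This was not particular to blood factors. Spleen replicate 2 was also the highest array on the epithelial list (0.618, next kidney replicate 1 at 0.538). The same held on the leukocyte list (0.591, next colon replicate 1 at 0.527) and on none of the remaining lists. The lists were chosen with earlier results of these data known.

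The 62 islands lay inside genes in 64.5% of cases, against 62.5% of all islands, and in promoters in 9.68% against 18.1%. They held a median of 5 probes over 457.5 bases, against 6 probes and 683.5 bases. Only 4 of the 62 had an input signal well above background for every probe on all 16 arrays, as had 3.86% of all islands, and at 17 fewer than 50% of the probes did. Embryos, which the comparison did not use, had medians of 0.0768 to 0.411 at these islands on 5 arrays. These overlapped the low end of the 0.308 to 1.43 of the 13 other adult arrays. The set was mixed, with 10 to 23 of these islands above 0.75 on each embryo array. The S1pr4 island had 2.56 to 3.28 on the embryo arrays, near the level of the adult tissues other than spleen replicate 2 and kidney replicate 1.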

How the data were processed

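The arrays were Agilent mouse CpG island arrays of mDIP DNA. The authors used Feature Extraction (10.5.1.1 on the adult arrays and other versions on some of the rest, per the file headers) to subtract background, normalise the dyes linearly and give a log10 ratio of bound (Cy5) to input (Cy3) for each probe, which was the value used here, and the deposited median signals are intensity values on a linear scale. In the deposited processed table the authors gave 1 score per probe and array, by their methods a Z-score within groups of like melting temperature, which on the 16 adult arrays correlated at 0.894 to 0.989 with the scanner log10 ratios and had column medians of -0.315 to -0.121. Its direction matched there, its exact scale and centring stay unknown, and it served as an alternative. Their correction of Z-scores for melting temperature was not repeated, since probe sequences were not used here. Control and flagged spots were left out, and each array's log10 ratios were turned into Z-scores. Islands were runs of at least 3 probes with gaps of at most 500 bases; X and Y were dropped. Adult arrays held 88737 or 97651 probes, with input signal well above background for 62.4% to 99.3% of them. Precision is limited by 2 arrays a tissue. Nothing says that arrays of a tissue came from separate animals except where sexes differ, so p-values measure the spread between these samples.

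Tissue means were fitted with limma 3.58.1 (R 4.3.3) over the 16 adult arrays, with spleen set against the mean of the 7 other tissue means and p-values adjusted by Benjamini-Hochberg over 13238 islands at 0.05. In simulated data with 200 changed islands, a change of 1 was recovered for 81% with 16 arrays and 40.5% with 14, and a change of 0.5 for 0% with either. The simulated noise was independent for each array, with the spread of the 16-array fit. It held no effect of slide and no conflict between replicates, so these shares may not hold for the real arrays. Same-numbered samples of different tissues were not treated as pairs, since the correlations of their deviations ran from -0.32 to 0.488 over 28 pairs of tissues and passed 0.1 in 11. These 11 lay among the 15 pairs of the 6 tissues other than colon and pancreas, whose replicate 1 arrays shared a scan day, an array design and the female sex, so that the number marks a batch there, and replicate, design and sex were tried as blocks. The arrays, islands and gene lists were chosen with earlier results of these data known. The rule for named genes took the 12 largest called differences in each direction and up to 4 per list. It named none with 16 arrays and was then applied without the slide of replicate 1, so genes were named after their values were seen. Alternatives covered scaling, background correction (normexp, offset 50, on median signals), probe filters, island rules, covariates and leaving out arrays or tissues. No deposited column was left without a sample.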

Additional observations from a re-analysis of the deposited data

Results flagged for a closer look

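Spleen and kidney differed in opposite directions on the slide of replicate 1, labelled female, and on that of replicate 2, labelled male. Over the 62 islands called higher without the slide of replicate 1, the median of spleen minus kidney was -1.39 on the female slide and 1.74 on the male slide. The difference between the slides was not tested. The 2 slides also differed in scan day and array design, so that sex cannot be told apart from these or from the slide. Whether the labels of the arrays on a slide had been exchanged was not tested either. The value on the male slide was not independent, since spleen replicate 2 and kidney replicate 2 had both entered the choice of these islands. Runx1, Spi1, Gfi1 and Pax5 are among them.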

How the results depend on the processing

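The count of 0 islands with all 16 arrays held in 42 settings fixed or added, many of them on other sets of arrays. In these, 34 to 1251 islands had an unadjusted p under 0.05 by the test of each setting. The 34 came from spleen against kidney alone with slide as a block, a different contrast on 4 arrays. Leaving out each array gave 0 to 0 called, and the replicate block gave 0 called and 291 unadjusted. The methods' t-test gave 289 islands unadjusted and 0 after Benjamini-Hochberg. Only leave-outs added after seeing the data gave calls, 63 and 2 without the slide of spleen and kidney replicate 1 or 2, and 282 and 64 without 6 replicate 1 or 6 replicate 2 arrays. The gene lists then held 14 and 1 called islands without a slide and 35 and 28 without 6 arrays. The cause was not tested.
Without the slide of replicate 1, the count of 63 was 15 with normexp, 41 in the deposited table, 24 with at least 5 probes, 31 with 2 groups, 36 with eBayes trend and robust, 40 without pancreas, 49 with the replicate block and 39 to 86 leaving out 1 array (41 and 39 without colon replicate 1 or 2). Without the slide of replicate 2, the count of 2 was 8 with log2 ratios, 6 with normexp, 1 in the deposited table, 6 with 2 groups, 4 with trend and robust, and 2 to 3 leaving out 1 array.
Both spleen arrays were above all others at 197 islands with log2 ratios, 4 with normexp, 3 in the deposited table, 11 without dim probes, 15 by probe medians or with at least 5 probes, 65 without kidney, 39 without lung, 42 without pancreas, and 26 to 587 leaving out 1 array. Of these, 587 and 351 count 1 spleen array alone (without spleen replicate 1 or 2), as do 733 and 401 without slides of replicate 1 and 2 and 915 and 557 without 6 arrays. Both were below at 5 with normexp, 30 without dim probes, 105 without kidney, 109 without lung, and 67 to 765 leaving out 1 array. With 1 spleen array, the counts were 765 and 758 without the other, 879 and 785 without a slide, and 1275 and 1037 without 6 arrays. Islands crossing the thresholds were 3 and 4 without the slide or the 6 arrays of replicate 2. The median difference on the other replicate, in the chosen direction, was -0.248 and -0.0728, became -0.0619 and 0.0798 without kidney, and ran from -0.285 to -0.112 and from -0.141 to 0.0528 leaving out 1 array.
Of 2542 values of 81 named islands under alternatives, 2187 stayed on the same side of the threshold, 351 lost and 4 gained the call, and none turned.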
